A study of Mus musculus with 36 samples.

Results

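Melatonin at 10 µM was compared with solvent in RAW 264.7 cells that received no lipopolysaccharide (LPS). RAW 264.7 is a macrophage-like mouse cell line, wild type per the labels, and LPS, from the cell envelope of Gram-negative bacteria, activates macrophages through Toll-like receptors. The comparison rests on 3 libraries with 10 µM melatonin and 3 with solvent, 6 of the 36 libraries sequenced, chosen by their treatment labels, and it covers all genes counted. For reference the text also uses melatonin alone at 1 mM, 100 µM, 1 µM and 0.1 µM, LPS at 10 µg/mL, and LPS with 10 µM melatonin, each with 3 libraries. LPS with the other melatonin doses, also 3 libraries each, enters the joint fit and the summaries over all 36 libraries. Values by group are given for it in 1 summed share of counts. All cells were collected after 12 h, and cells that received both agents were given melatonin 30 min before LPS. The solvent is not named in the labels, and the same 3 solvent libraries are the control of every melatonin dose. The labels number the libraries of a group and do not say that they came from separate cultures, so every p-value here rests on spread that may be technical, between these libraries alone.

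Melatonin is the indoleamine hormone of the pineal gland, known for G-protein-coupled membrane receptors, for radical scavenging, and for dampening inflammatory signalling in macrophages. Much of that signalling runs through NF-kB, a transcription factor held in the cytoplasm by inhibitors such as the product of Nfkbia. Once released, NF-kB switches on Tnf, chemokines and Nfkbia itself, so that the inhibitor is made again. The antioxidant response runs through the transcription factor NRF2, which induces genes such as Srxn1 and Hmox1.

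The 6 libraries held 5905073 to 7590271 counted reads. The 3 counts that a count of 0 still allows correspond to 0.388 to 0.510 CPM in these libraries (CPM are counts scaled by the total over tested genes times the library's TMM factor), and this floor and all counting intervals cover counting error only. The 8 macrophage markers tested, among them Lyz2, Csf1r, Cd68 and Adgre1, summed to 12900 to 13500 CPM in solvent and 11300 to 12500 CPM with melatonin, and none of them passed the test. Markers of T cells, B cells, NK cells and neutrophils had 0 counts in all 6 libraries. The 5 fibroblast markers summed to 3.06 to 3.60 CPM in solvent and 0.130 to 0.297 CPM with melatonin, and neither of the 2 that were tested passed. The share of counts in genes annotated as ribosomal RNA was 0.915% ± 0.228 in solvent and 0.343% ± 0.114 with melatonin (SD, n = 3). That share includes the gene CT010467.1, at means of 9109 and 3304 CPM, so it is no separate measure of that gene. The part of either difference in the results was not tested. In gene-centred log2 CPM, 26 of the 36 libraries correlated best with a library of their own group. A pair of libraries outside the comparison sat far from their groups: replicate 3 of 1 mM melatonin (own-group correlations of 0.112 to 0.114) and replicate 1 of 1 µM melatonin (0.108 to 0.114). The first correlated best with a 100 µM library (0.197) and the second with a 1 mM library (0.222). They were among 10 libraries that correlated best with a library of another group, as were the other 1 µM libraries. Solvent replicate 3, a library of this comparison, was among the 10 too. It correlated at 0.216 with a 100 µM library and at 0.182 to 0.203 within its own group. Whether the labels or the quality of these libraries lie behind this was not tested.

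After 12 h with 10 µM melatonin, 12 genes were lower and 2 were higher than in solvent. The lower genes were the inflammatory genes Tnf, Cxcl2, Nfkbia, Traf1 and Acod1, the interferon-response gene Oasl2, and the surface receptor genes Slamf9 and Ccr1. Lower too were CT010467.1, annotated as ribosomal RNA, and Lars2, Gm15564 and Gm23935, which varied together with it. The higher genes were Srxn1, which encodes the antioxidant enzyme sulfiredoxin, and the processed pseudogene Gm12096. These 14 genes are 0.0824% of the 16988 tested (0.0706% lower, 0.0118% higher) at an adjusted p under 0.05 in edgeR's quasi-likelihood test with Benjamini-Hochberg adjustment over all genes. In all 14 the 3 libraries of one group were above the 3 of the other, as in 12.4% of all tested genes (5.86% higher, 6.55% lower with melatonin). The median log2 fold change over all tested genes was 0, with 49.6% of genes below 0. DESeq2 on the same 36 libraries called 38 genes, 12 higher and 26 lower (0.278% of the 13657 genes it adjusted), among them all 14. The count depended on the libraries in the fit. Without replicate 2 of 10 µM melatonin edgeR called 9 genes, 8 of them among the 14. It called 62 from the 6 libraries alone, 10 of them among the 14, and 43, including all 14, without the pair of distant libraries.

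**Figure D1:**
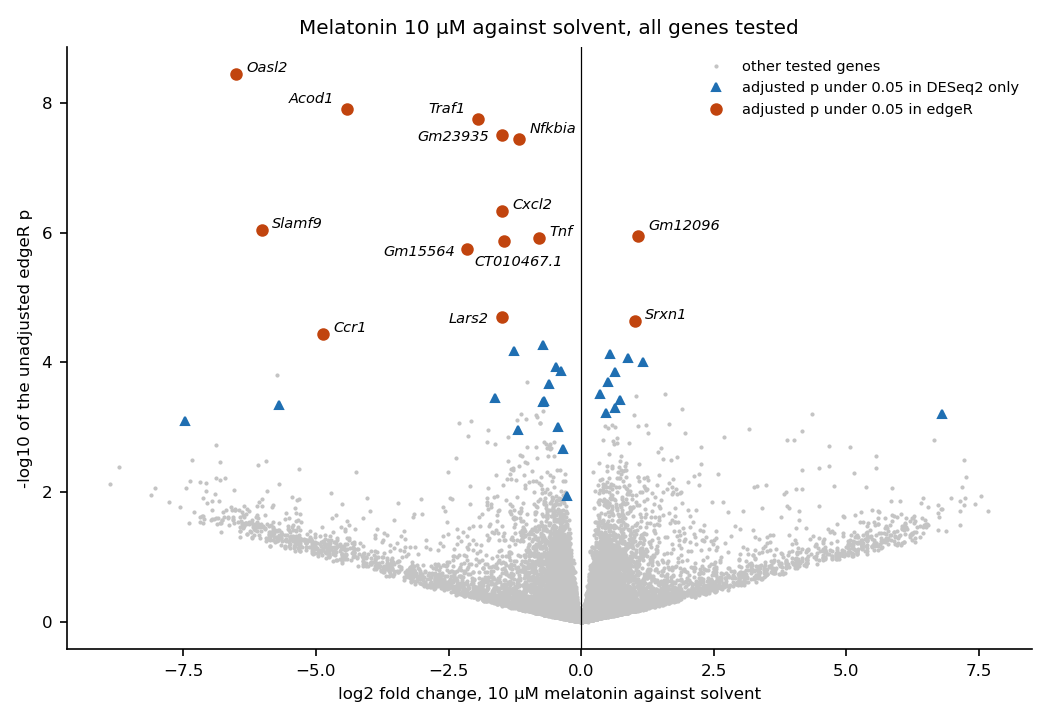
Each point is 1 of the 16988 tested genes, with the log2 fold change of 10 µM melatonin against solvent on the x axis and −log10 of the unadjusted edgeR p on the y axis. The genes past the edgeR threshold are named, 12 lower and 2 higher, and genes past the DESeq2 threshold alone have a marker of their own.

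Tnf encodes the cytokine TNF, an early signal of the macrophage inflammatory response. Its level was 172, 189 and 159 CPM in the 3 solvent libraries and 105, 99.8 and 94.95 CPM in the 3 melatonin libraries. All melatonin libraries were below all solvent libraries, and Tnf fell by 0.80 ± 0.14 on the log2 scale (SE; edgeR adjusted p = 0.00227). Nfkbia stood at 216, 181 and 136 CPM in solvent and 71.9, 90.2 and 75.3 CPM with melatonin. The groups did not overlap, and Nfkbia fell by 1.17 ± 0.17 (log2, edgeR adjusted p = 1.23e-04).

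Traf1, an adaptor of TNF receptors that NF-kB induces, had 37.9, 35.8 and 25.2 CPM in solvent and 7.26, 11.9 and 6.54 CPM with melatonin. Every melatonin library was below every solvent library, and Traf1 fell by 1.94 ± 0.28 (log2, edgeR adjusted p = 9.96e-05). Cxcl2, a chemokine that draws neutrophils, was at 73.1, 100.3 and 85.2 CPM in solvent and 31.1, 34.3 and 26.3 CPM with melatonin. It fell by 1.49 ± 0.25 (log2, edgeR adjusted p = 0.00131), again with no overlap. The calls of Tnf, Nfkbia, Traf1 and Cxcl2 held in each of the 15 alternative analyses, among them the removal of each of the 6 libraries. In GRCm38 (mm10) Tnf lies on chromosome 17, 35199381 to 35202007, Nfkbia on chromosome 12, 55489410 to 55492647, Traf1 on chromosome 2, 34941750 to 34961772, and Cxcl2 on chromosome 5, 90903871 to 90905938.

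Upstream sequence of 3 of these genes is shown because NF-kB binds short sites near the genes it regulates and these genes moved in the same direction. Each window is the 250 bases before the RefSeq start (GRCm38.p6), 5′ to 3′ on the gene's strand: Nfkbia at chr12:55492648-55492897, minus strand, Cxcl2 at chr5:90903649-90903898, plus strand, and Tnf at chr17:35202008-35202257, minus strand. Capitals mark matches on either strand to the general consensus of the kB site, the motif of NF-kB.
Nfkbia: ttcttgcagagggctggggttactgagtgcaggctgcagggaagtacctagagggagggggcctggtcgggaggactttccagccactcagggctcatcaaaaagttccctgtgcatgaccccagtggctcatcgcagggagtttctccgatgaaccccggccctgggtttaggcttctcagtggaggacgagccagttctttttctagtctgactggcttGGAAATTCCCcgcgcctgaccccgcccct
Cxcl2: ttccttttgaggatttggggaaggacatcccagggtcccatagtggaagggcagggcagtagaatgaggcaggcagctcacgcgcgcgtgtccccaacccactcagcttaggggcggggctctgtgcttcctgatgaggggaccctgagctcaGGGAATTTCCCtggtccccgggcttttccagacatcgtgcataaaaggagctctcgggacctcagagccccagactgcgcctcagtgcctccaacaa
Tnf: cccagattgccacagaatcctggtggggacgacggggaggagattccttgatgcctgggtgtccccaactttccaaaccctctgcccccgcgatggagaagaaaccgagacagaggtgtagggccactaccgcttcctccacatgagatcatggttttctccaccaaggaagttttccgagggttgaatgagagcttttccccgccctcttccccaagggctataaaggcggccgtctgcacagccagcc
Nfkbia held 1 match, whose upstream end lay at position −29 from the start, and Cxcl2 held 2 that overlap each other, at −97 and −96. Ccr1 held 1, at −74. The windows of Tnf, Traf1, Acod1, Oasl2, Slamf9, Srxn1, Lars2 and Gm15564 held no match, which says only that the consensus is not in these letters. Of 32851 RefSeq windows of this length, 7.25% held the consensus. The consensus replaced a narrower motif after its matches had been seen, so the matches and this share are a description and no test. A match describes letters and is not evidence of binding. A window was found for 11 of the 14 genes.

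Acod1 makes itaconate, a metabolite of activated macrophages. Its level was 9.68, 4.71 and 10.0 CPM in solvent and 0.259, 0 and 0.891 CPM with melatonin, from 154 and 8 counts per group. The groups did not overlap, and Acod1 fell (log2 −4.42 ± 0.63, edgeR adjusted p = 9.96e-05). The log2 fold change was −5.78 without melatonin replicate 3 and −3.83 without replicate 2, the extremes of 15 alternatives. The fit on the 6 libraries alone was the 1 alternative of 15 in which its call was lost (adjusted p = 0.0946). Oasl2, an interferon-induced relative of the oligoadenylate synthetases, had 5.44, 8.01 and 4.195 CPM in solvent and 0, 0 and 0.149 CPM with melatonin. The ratio of its summed counts, 111 in solvent and 1 with melatonin, scaled by library size, was 130 with an exact 95% counting interval of 22.9 to 5180. Its edgeR adjusted p, 6.13e-05, was the smallest of all genes tested, and its call held in all 15 alternatives.

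The receptor genes were scarce in both groups. Slamf9, a SLAM-family receptor, had 4.59, 5.50 and 2.55 CPM in solvent and 0, 0 and 0.149 CPM with melatonin. Its summed counts were 79 and 1, a ratio of 92.5 with a counting interval of 16.1 to 3700, and it fell (edgeR adjusted p = 0.00221). Its adjusted p was 0.0503 without melatonin replicate 2 and 0.131 in the 6 libraries alone. Ccr1, a receptor for Ccl3 and related chemokines, had 2.55, 3.46 and 3.45 CPM in solvent and 0, 0.259 and 0 CPM with melatonin. Its summed counts were 60 and 2, a ratio of 35.1 with an interval of 9.31 to 297, and it fell (edgeR adjusted p = 0.0450). The call was lost without any 1 of the 6 libraries: the adjusted p was 0.305, 0.0503 and 0.329 without melatonin replicate 1, 2 and 3, and 0.0568, 0.0986 and 0.0857 without solvent replicate 1, 2 and 3.

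**Figure D2:**
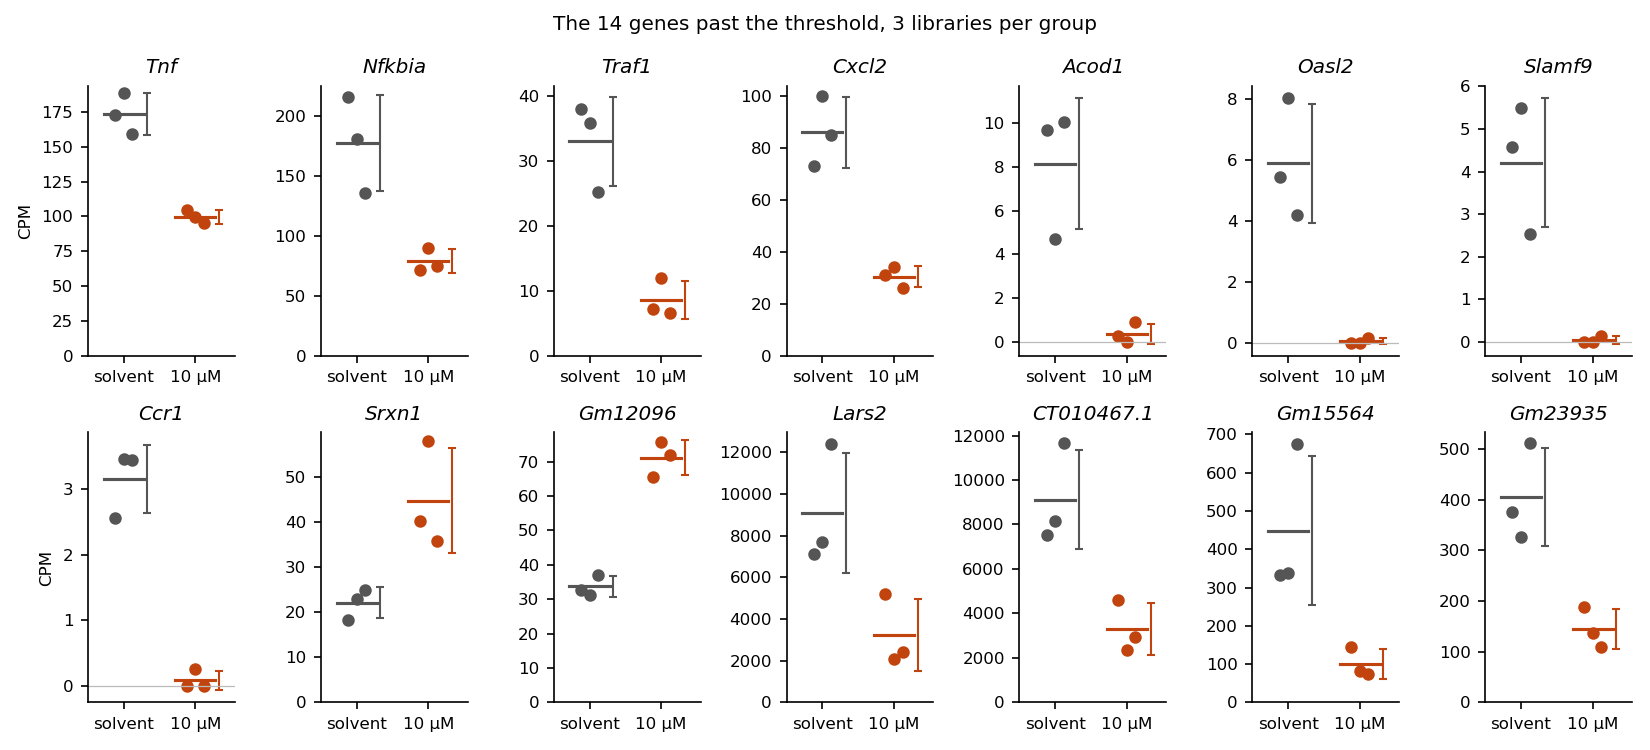
Each panel shows CPM on a linear y axis for 1 of the 14 genes past the threshold, with points for the 3 solvent and 3 melatonin libraries, and the mean with ± 1 SD. In every panel the points of the 2 groups are separate, and Srxn1 and Gm12096 are the genes that are higher with melatonin.

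Srxn1 was the 1 protein-coding gene that rose. Its enzyme restores oxidised peroxiredoxins, and NRF2 is known to induce it. Srxn1 was at 18.4, 22.9 and 25.02 CPM in solvent and 40.3, 57.9 and 35.8 CPM with melatonin. The groups did not overlap (log2 1.01 ± 0.21, edgeR adjusted p = 0.0305). The call was lost in 5 of 15 alternatives: the adjusted p was 0.420 without melatonin replicate 2, which held the highest value, 0.249, 0.107 and 0.0505 without solvent replicate 1, 2 and 3, and 0.131 in the 6 libraries alone. The 250 bases before its RefSeq start (GRCm38.p6, chr2:152105274-152105523, plus strand) are shown since NRF2 target genes carry antioxidant response elements. Capitals mark matches on either strand to TGACNNNGC or TGAGNNNGC, letters like the core of such an element.
Srxn1: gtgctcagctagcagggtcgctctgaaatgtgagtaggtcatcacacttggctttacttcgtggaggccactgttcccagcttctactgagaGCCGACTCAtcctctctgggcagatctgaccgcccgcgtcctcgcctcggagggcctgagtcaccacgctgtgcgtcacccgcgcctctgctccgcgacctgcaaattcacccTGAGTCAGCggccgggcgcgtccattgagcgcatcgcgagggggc
The matches had their upstream ends at −158 and −45 from the start. Such matches are common: 23.0% of the 32851 windows held at least 1. Genes that fell held them too: Oasl2 had 1 match, at −56, Nfkbia 1, at −13, Lars2 2, at −114 and −83, and Gm15564 1 in each of 2 overlapping windows, at −202 and −204.

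Hmox1, the heme oxygenase gene that NRF2 also induces, had 12.9, 14.6 and 11.8 CPM in solvent and 23.7, 19.7 and 34.9 CPM with melatonin. The groups were separate, and the difference did not pass the test (log2 0.99 ± 0.27, edgeR adjusted p = 0.260). Of 26 tested NRF2 and antioxidant genes 1 rose (Srxn1) and none fell, beside 0.0118% of all tested genes that rose and 0.0706% that fell. At an unadjusted p under 0.05, 7 were higher, Srxn1 among them, and 1 lower, beside 548 higher and 610 lower of all 16988 genes. The list was chosen with earlier results of these data known, so these counts are a description and no test of the list. The list's median log2 fold change was 0.251, with 20 members above 0. Gclm, a subunit of the enzyme that starts glutathione synthesis, was at 34.7 ± 7.12 CPM in solvent and 51.2 ± 10.3 CPM with melatonin (SD, edgeR adjusted p = 0.624). Nqo1, a quinone reductase and NRF2 target, had 4 counts in the solvent group and 8 in the melatonin group, and Slc7a11, the cystine transporter, was at 39.3 ± 9.14 and 42.4 ± 5.36 CPM (edgeR adjusted p = 0.998).

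Gm12096 was at 32.8, 31.2 and 37.1 CPM in solvent and 65.6, 75.7 and 71.9 CPM with melatonin. All melatonin libraries were above all solvent libraries, and it rose by 1.07 ± 0.19 (log2, edgeR adjusted p = 0.00227). It is annotated as a processed pseudogene (chromosome 11, 30528295 to 30529401, GRCm38) inside Acyp2, on the opposite strand and outside its exons. Of its 805 stretches of 25 bases, 18.9% also occur in Psmd14, a proteasome subunit gene, so the origin of its reads is uncertain. Psmd14 itself was at 145.6 CPM in solvent and 134.7 CPM with melatonin (edgeR adjusted p = 0.978).

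The 4 remaining genes varied together. CT010467.1, annotated as ribosomal RNA (chromosome 17, 39846353 to 39848827, GRCm38), had 7528, 8139 and 11660 CPM in solvent and 4600, 2352 and 2960 CPM with melatonin. It fell (log2 −1.46 ± 0.26, edgeR adjusted p = 0.00231). Lars2, which encodes the mitochondrial leucyl-tRNA synthetase, had 7139, 7688 and 12400 CPM in solvent and 5217, 2101 and 2412 CPM with melatonin. It fell as well (log2 −1.48 ± 0.31, edgeR adjusted p = 0.0281). The level of Lars2 followed that of CT010467.1 over all 36 libraries (Pearson's r = 0.929). Whether the reads counted for Lars2 came from its own mRNA was not tested. Gm15564, annotated as an antisense RNA, was at 334, 339 and 674 CPM and 146, 82.4 and 73.0 CPM (log2 −2.16 ± 0.39, edgeR adjusted p = 0.00279). Gm23935, annotated as a miRNA gene, was at 376, 326 and 512 CPM and 187, 137 and 109 CPM (log2 −1.48 ± 0.22, edgeR adjusted p = 1.23e-04). In all 4 genes solvent replicate 3 was the highest of the 6 libraries, and melatonin replicate 1 was the highest of its group.

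Over all 36 libraries these 4 genes correlated pairwise with Pearson's r of 0.809 to 0.938, a description over libraries that share groups. Together they took 1.91% ± 0.551 of counts in solvent and 0.700% ± 0.291 with melatonin (SD, n = 3; exact two-sided permutation p = 0.1, the smallest that 3 against 3 libraries allow). Melatonin alone at 0.1 µM, 1 µM, 100 µM and 1 mM gave 1.44% ± 0.127, 1.21% ± 0.355, 1.52% ± 0.484 and 0.804% ± 0.375, with the pair of distant libraries included. CT010467.1 shares no stretch of 25 bases with the other 3 genes, and Lars2 and Gm15564 share 28. Gm23935 is uncertain, since all its 25-base stretches also occur in Gm24270, which stood at 112 CPM in solvent and 48.2 CPM with melatonin (edgeR adjusted p = 0.284). CT010467.1 overlaps exons of Gm42418, on the opposite strand, and AY036118, on the same strand, both with 0 counts in all 36 libraries. The strand setting of the counting is not given in the sources used here, so reads of CT010467.1 cannot be told apart from those of these partners. Gm15564 overlaps Parp9 and Kpna1, and Gm23935 lies within Zc3h7a, each on the opposite strand and outside the partner's exons. Without melatonin replicate 2 the edgeR adjusted p was 0.057 for CT010467.1, 0.0503 for Gm15564 and 0.310 for Lars2. It was 0.0682 for Gm15564 and 0.311 for Lars2 without melatonin replicate 3, and 0.0636 and 0.216 without solvent replicate 3. Gm23935 held in all 14 alternatives that tested it.

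A further 17 genes with established names passed the DESeq2 threshold and not that of edgeR, beside 7 with Gm, Rik or clone names. In each of the 17 the groups did not overlap, as in 12.4% of all tested genes. DESeq2 called 0.278% of the 13657 genes it adjusted. Ccl3, a macrophage chemokine, was at 381, 395 and 372 CPM in solvent and 285, 269 and 266 CPM with melatonin (log2 −0.48 ± 0.11, adjusted p = 0.00429 in DESeq2 and 0.101 in edgeR). Prdx6, a peroxiredoxin, was at 172, 163 and 170.5 CPM in solvent and 237, 251 and 229.7 CPM with melatonin (log2 0.50 ± 0.12, adjusted p = 0.00462 in DESeq2 and 0.137 in edgeR). Myc, a growth-promoting transcription factor, was at 3.57, 6.75 and 8.39 CPM in solvent and 1.43, 2.46 and 2.23 CPM with melatonin (adjusted p = 0.0419 in DESeq2 and 0.197 in edgeR). Thus Ccl3 and Myc were lower and Prdx6 higher by DESeq2 alone. Arpc2, a subunit of the actin-nucleating Arp2/3 complex, was at 1399 ± 52.9 and 1071 ± 78.8 CPM (SD, adjusted p = 1.52e-06 in DESeq2 and 0.108 in edgeR). Anxa2, a membrane-binding annexin, was at 348 ± 8.77 and 228 ± 3.05 CPM (adjusted p = 0.0198 in DESeq2 and 0.140 in edgeR). Pgd, an enzyme of the pentose phosphate pathway, which supplies NADPH, was at 195 ± 19.6 and 269 ± 32.7 CPM (adjusted p = 0.0212 in DESeq2 and 0.260 in edgeR). The other genes of this kind were Arhgef7, Cutc, Slc25a39, Tmem123, Phlda1, Actg1 and Hsp90aa1, which were lower, and Rragc, Nploc4, Hibadh and Nucb1, which were higher.

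Few members of the gene lists passed the edgeR threshold. The lists were chosen with earlier results of these data known, so their counts and medians are a description and no test of a list. Of 24 tested NF-kB subunits, inhibitors and feedback genes, 2 fell (Nfkbia and Traf1) and none rose. Over all 16988 tested genes 0.0706% fell and 0.0118% rose. At an unadjusted p under 0.05, 8 of the list were lower, Nfkbia and Traf1 among them, and none higher, beside 610 lower and 548 higher of all genes. The list's median log2 fold change was −0.189. Tnfaip3, a feedback inhibitor of NF-kB, was at 16.6, 23.9 and 20.8 CPM in solvent and 11.2, 8.93 and 9.81 CPM with melatonin, with separate groups (log2 −1.04 ± 0.29, edgeR adjusted p = 0.284). The subunit genes, named here after their values were seen, did not pass: Rela was at 87.1 ± 22.9 and 76.9 ± 9.78 CPM and Nfkb1 at 49.1 ± 3.27 and 52.7 ± 4.26 CPM (SD, edgeR adjusted p = 0.980 and 0.998).

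The counts of the next 4 lists stand beside 0.0706% of all tested genes that fell and 0.0118% that rose. Of 17 tested cytokines 1 fell (Tnf) and none rose. The list's median was −0.735, or −0.615 with genes that had 0 counts in a group set to their bound. Il1b had 26 counts in the solvent group and 12 in the melatonin group, and Il6 had 0 in both. Of 13 tested chemokines 1 fell (Cxcl2) and none rose, with 10 below 0 and a median of −0.483 (−0.534 with such bounds). Of 17 tested inflammatory enzymes and effectors 1 fell (Acod1). Ptgs2, the inducible cyclooxygenase, had 3.57, 10.7 and 7.19 CPM in solvent and 1.555, 1.553 and 3.27 CPM with melatonin (log2 −1.77 ± 0.53, edgeR adjusted p = 0.374). Nos2, the inducible nitric oxide synthase, had 2 counts and 1 count. Of 33 tested interferon-response genes 1 fell (Oasl2), 23 were below 0, and the median was −0.334 (−0.349 with bounds). Slfn2, a Schlafen gene of that list, was at 78.2 ± 7.78 and 38.4 ± 15.3 CPM (SD, edgeR adjusted p = 0.137). None of 20 immediate early genes passed in edgeR, and 17 were below 0.

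**Figure D3:**
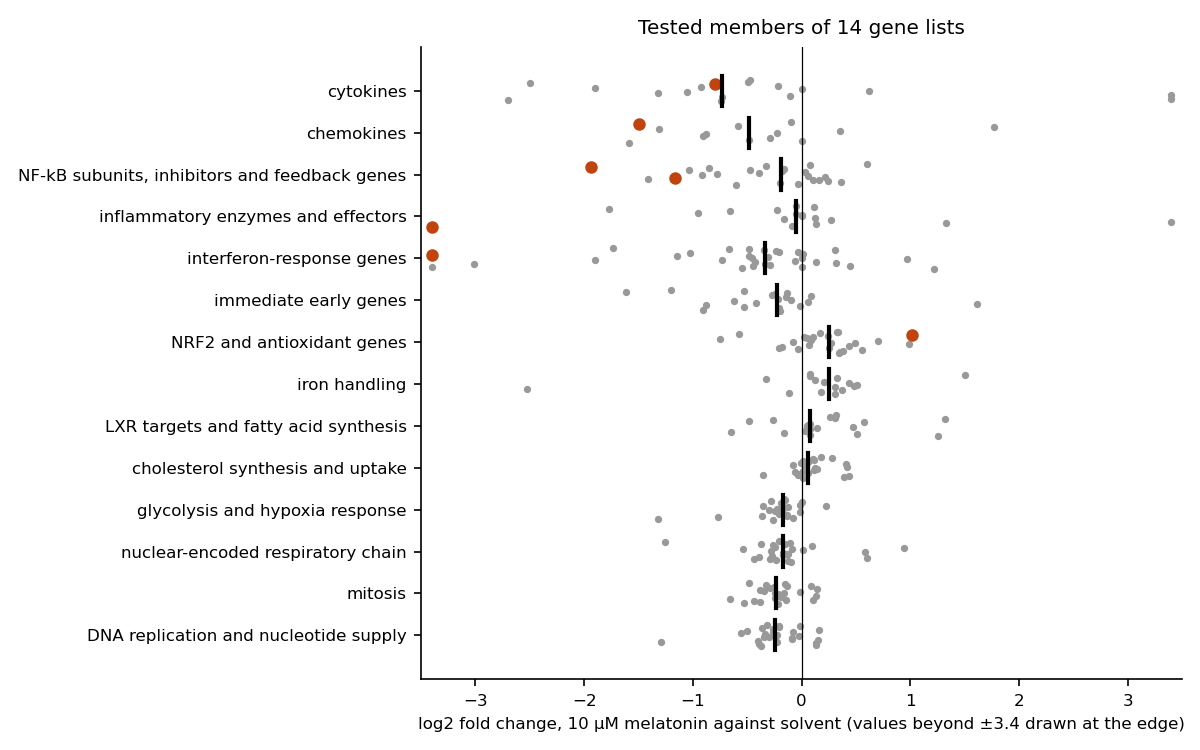
Points are the tested members of gene lists, placed by their log2 fold change of 10 µM melatonin against solvent on the x axis, with orange for genes past the edgeR threshold, values beyond the axis drawn at its edge, and a black bar at each list's median. The medians of cytokines (−0.735), chemokines (−0.483) and interferon-response genes (−0.334) lie left of 0, and those of NRF2 (0.251) and iron-handling genes (0.257) lie right of it.

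On the lists for iron handling, mitosis, DNA replication, glycolysis and the respiratory chain no gene passed the edgeR threshold. Iron-handling genes had a median log2 fold change of 0.257, with 13 of 16 above 0. Ftl1, Ftl1-ps1 and Ftl2-ps were counted as separate members (log2 0.479, 0.506 and 0.437), and whether they share reads was not tested. Slc40a1, the iron exporter ferroportin, was at 3.66 ± 0.362 CPM in solvent and 10.4 ± 1.18 CPM with melatonin (SD, edgeR adjusted p = 0.387). Of 25 mitosis genes 21 were below 0 (median −0.233), as were 22 of 26 DNA replication genes (median −0.244). Ccna2, cyclin A, was at 226 ± 18.6 and 143 ± 19.1 CPM (edgeR adjusted p = 0.376), and Mki67, a marker of cycling cells, at 2259 ± 105 and 1842 ± 20.2 CPM (edgeR adjusted p = 0.705). Of 24 glycolysis and hypoxia genes 22 were below 0 (median −0.174), and of 26 respiratory chain genes 21 (median −0.168). Bax, a promoter of apoptosis, was at 31.3 ± 9.77 and 63.9 ± 6.39 CPM (edgeR adjusted p = 0.190), and Abca1, a cholesterol exporter that LXR induces, at 14.6 ± 5.38 and 35.1 ± 2.75 CPM (edgeR adjusted p = 0.320). In bulk RNA, fewer cells with a transcript and less transcript per cell cannot be told apart.

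The receptor genes of melatonin, Mtnr1a and Mtnr1b, had 0 counts in all 6 libraries, which allows up to 0.388 to 0.510 CPM in each. Nqo2, a quinone reductase known to bind melatonin, was at 10.7, 22.5 and 12.6 CPM in solvent and 21.6, 22.8 and 18.3 CPM with melatonin. The groups overlapped (log2 0.45 ± 0.41, edgeR adjusted p = 0.931). None of the 9 tested genes on the list of melatonin receptors, binders and aryl hydrocarbon receptor targets passed, nor any of 19 circadian clock genes or 24 macrophage identity genes. Cd68, a macrophage marker, was at 257 ± 13.0 and 248 ± 3.47 CPM (SD).

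The other doses were compared with the same 3 solvent libraries. The genes below were chosen for a difference of 10 µM from those libraries, so their levels at the other doses relative to solvent are a description and give no independent support. Mean Tnf was 174 ± 14.8 CPM in solvent (SD, n = 3) and 99.9 ± 4.96 CPM at 10 µM. At 0.1 µM, 1 µM, 100 µM and 1 mM the Tnf means were 96.5 ± 17.1, 110.0 ± 20.8, 88.5 ± 9.40 and 76.3 ± 9.20 CPM. Without the pair of distant libraries the mean was 113.8 CPM at 1 µM and 81.5 CPM at 1 mM (n = 2 each). Tnf fell against solvent at each of these doses (edgeR adjusted p of 0.00175, 0.0300, 3.49e-05 and 3.40e-06 at 0.1 µM, 1 µM, 100 µM and 1 mM). Without the distant pair the edgeR adjusted p was 0.0405 at 1 µM and 2.65e-06 at 1 mM. At each other dose all 3 libraries were below the lowest solvent library for Tnf, Nfkbia, Traf1 and Acod1, and above the highest for Gm12096. Their place relative to solvent was thus not particular to 10 µM. Cxcl2 and Oasl2 were below in all but 1 library, at 1 µM. For Srxn1 and Ccr1 no other dose had all 3 libraries on the same side of solvent. Srxn1 was above the highest solvent library in 2 libraries each at 1 mM, 100 µM and 0.1 µM and in 1 at 1 µM. Ccr1 was below the lowest in 2 libraries each at 1 mM, 100 µM and 1 µM and in 1 at 0.1 µM. It was above the highest in 1 library each at 1 mM, 100 µM and 0.1 µM. Neither gene differed past the edgeR threshold from the mean of the other 4 doses. The difference of 10 µM from the mean of the other 4 doses was 0.12 ± 0.11 for Tnf, with a 95% interval of −0.10 to 0.34 (log2, edgeR adjusted p = 0.918). For Nfkbia it was −0.13 ± 0.14, with an interval of −0.41 to 0.15 (edgeR adjusted p = 0.944). For Cxcl2 it was −0.67 ± 0.21, with an interval of −1.09 to −0.26 (edgeR adjusted p = 0.331).

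**Figure D4:**
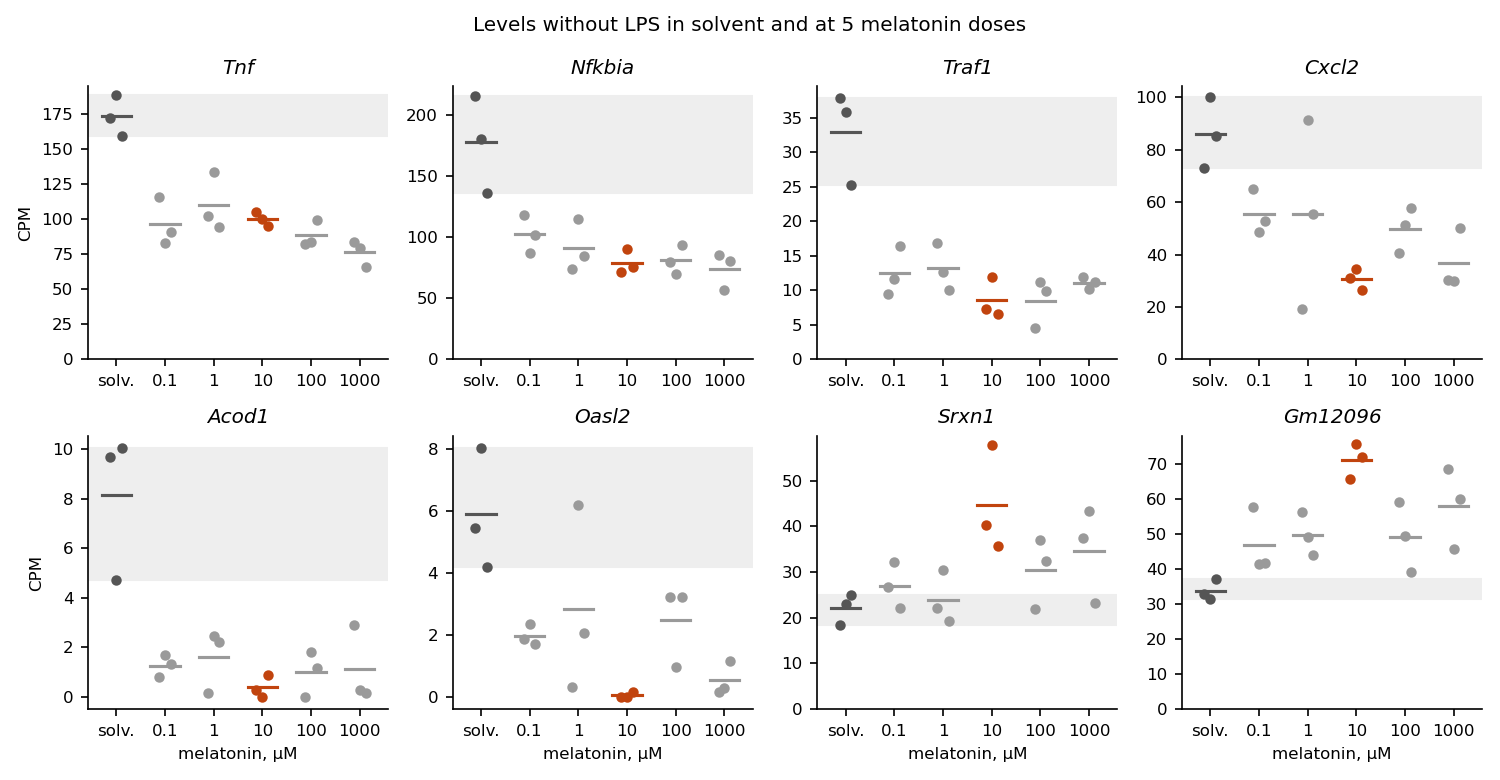
Each panel plots CPM of 1 gene in the 3 libraries of solvent and of each melatonin dose without LPS, with a bar at their mean, 10 µM in orange and a grey band over the range of the solvent libraries. The genes were chosen for a difference between 10 µM and these solvent libraries, so the place of the other doses relative to the grey band is a description. At 1 mM and 1 µM the points include replicate 3 and replicate 1, which sat far from their groups.

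Against the mean of the other 4 doses, 6 genes differed at 10 µM (0.0353% of those tested with edgeR), 3 lower and 3 higher. Oasl2 and Slamf9 were lower than that mean, by log2 −4.68 ± 0.92 and −5.005 ± 0.97 (edgeR adjusted p = 0.0284 for both). Mean Oasl2 was 1.96, 2.84 and 2.47 CPM at 0.1 µM, 1 µM and 100 µM. At 1 mM its 3 libraries were at 0.139, 0.282 and 1.15 CPM, the lowest of them below the 0.149 CPM of 10 µM replicate 3, and replicate 1 of 1 µM was at 0.305 CPM. The low level of Oasl2 was thus not limited to 10 µM. Mean Slamf9 was 3.58, 1.76, 1.23 and 2.35 CPM at 0.1 µM, 1 µM, 100 µM and 1 mM. Id2, an inhibitor of helix-loop-helix transcription factors, was at 87.0, 80.2 and 89.2 CPM at 10 µM and at means of 132, 149, 145 and 166 CPM at 0.1 µM, 1 µM, 100 µM and 1 mM (log2 −0.78 ± 0.13, edgeR adjusted p = 0.00373). In solvent Id2 was at 98.7, 118 and 116 CPM, from which 10 µM did not differ past the threshold (edgeR adjusted p = 0.705). Malat1, a nuclear long noncoding RNA, was at 5050, 5057 and 4996 CPM at 10 µM and at means of 2429, 3554, 3829 and 3906 CPM at the other doses in the same order (log2 0.58 ± 0.10, edgeR adjusted p = 0.00373). Gm10222 (log2 0.51 ± 0.09, edgeR adjusted p = 0.0164) and Gpat3, a glycerol-phosphate acyltransferase (log2 4.59 ± 0.94, edgeR adjusted p = 0.0491), were higher, with Gpat3 at 0, 2.33 and 4.46 CPM in the 10 µM libraries. Without replicate 2 or replicate 3 of 10 µM no gene passed this edgeR test, with 1253 and 1125 genes at an unadjusted p under 0.05. DESeq2 called 41 genes with all libraries, 3 of them among the 6, and edgeR called 52 without the pair of distant libraries.

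Direct comparisons with neighbouring doses gave 14 genes against 100 µM, all lower at 10 µM (0.0824%), and 3 against 1 µM (0.0177%), 2 lower (0.0118%) and 1 higher (0.00589%). Oasl2 and Id2 were lower in both. Id2 differed by −0.76 ± 0.16 from 100 µM and by −0.80 ± 0.16 from 1 µM (log2, edgeR adjusted p = 0.0264 and 0.0459). Zc3h12a, which encodes the RNA-degrading enzyme Regnase, was at 26.8, 13.2 and 17.5 CPM at 10 µM and 5.46 ± 1.81 CPM at 1 µM (SD, log2 1.81 ± 0.36, edgeR adjusted p = 0.0459). Without the distant pair, which holds a library of the 1 µM group, the edgeR adjusted p against 1 µM was 0.0720 for Id2 (log2 −0.58 ± 0.15) and 0.0198 for Zc3h12a.

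With LPS present, 10 µM melatonin did not lower Tnf, Nfkbia, Traf1, Cxcl2 or Acod1 past the threshold. LPS with 10 µM melatonin against LPS called 63 genes (0.371% of those tested with edgeR), 33 higher (0.194%) and 30 lower (0.177%), in 6 libraries that the comparison without LPS does not use. Tnf was at 1248 ± 37.2 CPM with LPS and 1105 ± 93.6 CPM with LPS and melatonin (SD, n = 3, log2 −0.18 ± 0.14, 95% interval −0.45 to 0.10, edgeR adjusted p = 0.727). Nfkbia was at 600.0 ± 42.6 and 558 ± 21.2 CPM (log2 −0.10 ± 0.17, interval −0.44 to 0.23, edgeR adjusted p = 0.913). Cxcl2 was at 1514 ± 50.2 and 1306 ± 33.4 CPM (log2 −0.21 ± 0.23, interval −0.68 to 0.26, edgeR adjusted p = 0.835). CT010467.1 and the genes that varied with it fell here too. The falls were 2.44 ± 0.32 for Lars2, 2.48 ± 0.40 for Gm15564, 1.60 ± 0.26 for CT010467.1 and 1.27 ± 0.22 for Gm23935 (log2, edgeR adjusted p of 3.01e-05, 9.84e-04, 9.84e-04 and 0.00200). These 4 calls held in all 10 alternatives of that comparison, and the other 10 of the 14 genes passed in none. The ribosomal RNA share, which includes CT010467.1, was 0.631% ± 0.0842 with LPS and 0.215% ± 0.0607 with LPS and melatonin (SD, n = 3). Together the 4 genes took 1.3% ± 0.221 of counts with LPS and 0.349% ± 0.0788 with LPS and 10 µM melatonin. With LPS and 0.1 µM, 1 µM, 100 µM and 1 mM they took 0.641% ± 0.0875, 0.217% ± 0.00661, 0.388% ± 0.0589 and 0.948% ± 0.313. Their low share with LPS was thus not limited to 10 µM. The count of 63 was 21, 17 and 31 without replicate 1, 2 and 3 of LPS with melatonin, 40, 35 and 28 without replicate 1, 2 and 3 of LPS, and 137 without the pair of distant libraries.

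The effect of melatonin with LPS minus its effect without LPS passed the threshold for 4 genes (0.0235%), above 0 for 3 (0.0177%) and below 0 for 1 (0.00589%). It was 6.10 ± 1.04 for Oasl2, 4.03 ± 0.72 for Acod1, 6.93 ± 1.27 for Slamf9 and −1.61 ± 0.26 for Gm12096 (log2, edgeR adjusted p = 0.00486, 0.00812, 0.0106 and 0.00463). Acod1 was at 1452 ± 130.1 CPM with LPS and 1111 ± 61.2 CPM with LPS and melatonin (SD), and Oasl2 at 70.3 ± 9.98 and 52.9 ± 14.1 CPM. Slamf9 was at 5.76 ± 0.794 and 10.8 ± 5.23 CPM, and Gm12096 at 128 ± 1.32 and 88.0 ± 6.36 CPM. For Traf1 and Nfkbia the difference between the effects did not pass (1.71 ± 0.37 and 1.06 ± 0.24, edgeR adjusted p = 0.0556 and 0.0737), nor for Tnf (0.62 ± 0.20, edgeR adjusted p = 0.328). Without melatonin replicate 1 the count was 1, without solvent replicate 3 it was 10, without LPS replicate 1 or 3 it was 7, and without the pair of distant libraries it was 64.

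**Figure D5:**
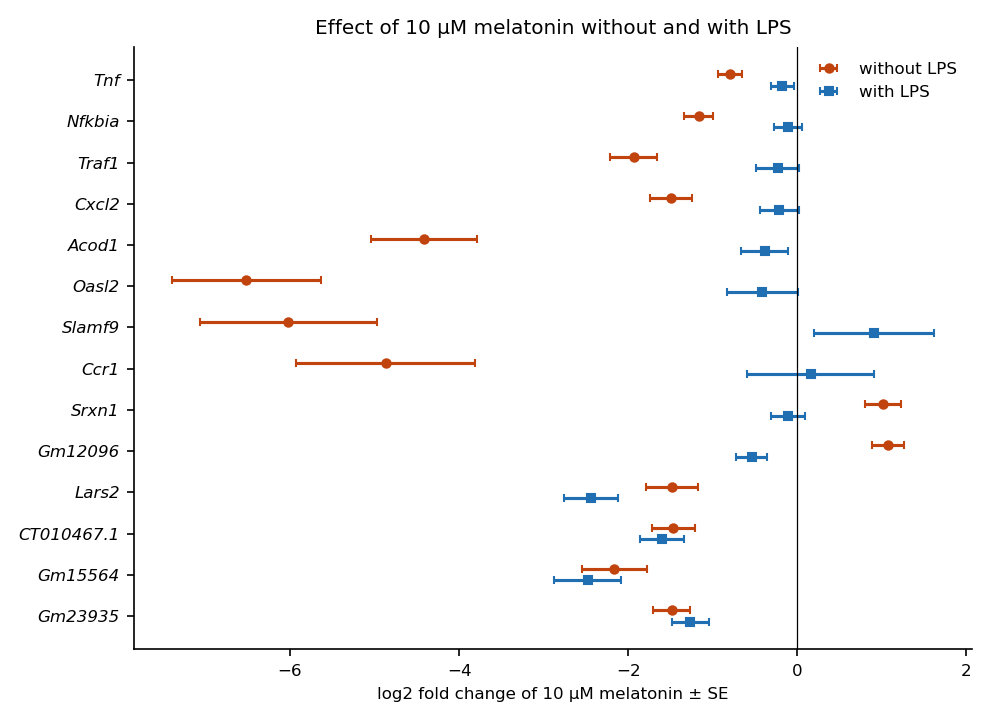
For each of the 14 genes, the x axis gives the log2 fold change of 10 µM melatonin ± SE, without LPS against solvent (orange) and with LPS against LPS (blue). Lars2, Gm15564, CT010467.1 and Gm23935 have both values well below 0, while for Tnf, Nfkbia and Cxcl2 the value with LPS lies between −0.21 and −0.10.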

How the data were processed

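Trizol was used to extract total RNA of RAW 264.7 cells, and TruSeq libraries were sequenced, per the labels' protocols. The submitters' processing notes name cutadapt, featureCounts and the mm10 build; the aligner, annotation release, strand setting and versions are not given in the sources used here. The authors' deposited count table holds 53465 genes in 36 libraries (12 groups of 3) with totals of 4203313 to 7590271. The deposited FPKM values entered no test, and no level printed rests on them.

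Here counts were tested with edgeR 4.0.16 (R 4.3.3, limma 3.58.1): filterByExpr over the 12 groups (16988 genes kept), TMM factors of 0.914 to 1.19, quasi-likelihood fit of all 36 libraries (common dispersion 0.266), and Benjamini-Hochberg adjustment over all genes at 0.05. All groups entered 1 fit so that they share 1 estimate of the spread. CPM are counts scaled by each library's total over tested genes times its TMM factor. The SE is the size of the log2 fold change over the root of its F statistic. Positions and biotypes come from GENCODE M21, which matched 99.6% of identifiers, and promoters from RefSeq GRCm38.p6. The kB consensus replaced a narrower motif after its matches had been seen. Alternatives were DESeq2 1.42.0, the 6 libraries alone, RLE factors, protein-coding genes only, other filters, a replicate block, and leaving out libraries. The tests of Tnf, Id2 and Zc3h12a at 1 µM and 1 mM without the distant libraries were added after seeing the data. The script was tested on simulated data. Named are the genes past the edgeR threshold, genes past it in DESeq2 alone that have established names, the next genes by p with at least 5 CPM in 1 group, up to 3 members per list by p with that level, genes always named, and up to 10 genes past the threshold in each other contrast. The members and the 32 lists were chosen with earlier results of these data known. Mitochondrially encoded genes are not reported here.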

Additional observations from a re-analysis of the deposited data

Results flagged for a closer look

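For 4 genes the effect of 10 µM melatonin differed between cells with and without LPS, in edgeR's test of that difference with Benjamini-Hochberg adjustment over all 16988 genes. Each value is the log2 fold change with LPS minus that without LPS. For Gm12096 it was −1.611 (adjusted p = 0.00463, between 8.18e-06 and 0.0201 over 16 alternatives, past the threshold in all 16). For Oasl2 it was 6.104 (adjusted p = 0.00486, between 5.63e-05 and 0.0744, past in 15 of 16). For Acod1 it was 4.034 (adjusted p = 0.00812, between 2.18e-04 and 0.0890, past in 14 of 16). For Slamf9 it was 6.932 (adjusted p = 0.0106, between 0.00174 and 0.0890, past in 13 of 16). Oasl2 and Slamf9 had 1 count each in the melatonin libraries without LPS, and Acod1 had 8, so that these differences rest on low counts in that group. The cause of the differences was not tested.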

How the results depend on the processing

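The 14 calls of 10 µM melatonin against solvent (2 higher, 12 lower) became 62 in edgeR on the 6 libraries alone (21 higher, 41 lower, of 13162 genes), 38 in DESeq2 on 36 libraries (12 higher, 26 lower), 363 in DESeq2 on the 6 (149 higher, 214 lower), 49 with no filter on low counts (15 higher, 34 lower) and 43 without the pair of distant libraries (16 higher, 27 lower). The count ranged from 9 to 14 when 1 of the 6 libraries was left out, and was 14 with RLE factors, 12 with protein-coding genes only and 15 with at least 5 CPM in 3 libraries. Against the other 4 doses the 6 calls became 41 in DESeq2 and 52 without the distant libraries, and 0 to 6 with 1 of the 3 libraries of 10 µM left out (those of the other doses were not left out in turn). With LPS the 63 calls became 158 and 137, and 17 to 40 with 1 of its 6 libraries left out. For the difference between the effects the 4 calls became 70 and 64, and 1 to 10 with 1 of its 12 libraries left out. The difference in ribosomal RNA share, a share that includes CT010467.1, was −0.572 percentage points and ranged from −0.653 to −0.441. The cause was not tested.

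Deviations of same-numbered libraries of the 2 groups from their group means correlated at 0.00949, 0.00794 and 0.0152. Those of differently numbered libraries correlated at −0.017 to 0.00649. No sizeable shared effect of the number was seen, which cannot show that the libraries were unpaired. With the replicate block edgeR called 14 genes against solvent, 13 of them among the 14, and 5, 53 and 4 in the other comparisons in the order above. Of the alternatives for single genes and counts, 10 changed sign, all for genes short of the threshold: with 1 library left out, Dcstamp ranged from −0.2356 to 0.1061, Slc7a11 from −0.05445 to 0.2786, Nos2 from −2.684 to 1.738, Nqo1 from −1.306 to 4.271 (−1.164 with the block), Gm17709 from −0.04793 to 0.1581 (also −0.02916 and −0.02706), and Zc3h12a from −0.1902 to 0.4597 (also −0.1074) (log2 fold changes). Data were also simulated with these groups, with the changed genes drawn from those above 5 CPM in solvent. The edgeR test recovered 34% of 100 genes changed 2-fold and 64% of 100 changed 3-fold, with 5 false calls among 15927 genes. Changes of this size can thus be missed at this depth. The simulated spread followed its trend over genes and not the spread of each gene. The rates therefore do not cover scarcer genes such as Slamf9 and Ccr1.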

Other observations

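Some gene groups outside the inflammatory and antioxidant lists also had most members on one side of 0, with no gene past the edgeR threshold. These lists too were chosen with earlier results of these data known. Of 27 tested genes of the unfolded protein and integrated stress response, 21 were below 0 (median log2 fold change −0.172), and Mthfd2, a mitochondrial folate enzyme, was at 256 ± 38.6 CPM in solvent and 207 ± 23.3 CPM with melatonin (SD, n = 3, edgeR adjusted p = 0.718). Of 21 actin cytoskeleton genes 16 were below 0 (median −0.167), and Actb was at 6105 ± 343 and 4994 ± 237 CPM (edgeR adjusted p = 0.683). Of 24 cholesterol synthesis and uptake genes 18 were above 0 (median 0.063), as were 15 of 19 LXR targets and fatty acid synthesis genes (median 0.077). Over all 16988 tested genes 8425 were below 0. The small nuclear RNA gene Rn7sk was at 44.7, 20.3 and 45.4 CPM in solvent and 7.91, 10.1 and 4.16 CPM with melatonin (edgeR adjusted p = 0.289).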
